A study of Mus musculus with 14 samples.

Results

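The response of whole mouse liver to interleukin 13 (IL-13) was measured as an average over wild-type and Alb-Cre mice. It is the mean of the IL-13 groups minus the mean of the EGFP groups, with equal weight for each genotype. The samples were chosen by their titles, and all 14 of the 14 arrays in the series entered the contrast. RNA from each liver was hybridised to 1 array of an Illumina mouse BeadChip, and the groups were wild type with an EGFP plasmid (4 arrays), Alb-Cre with EGFP (4 arrays), wild type with an IL-13 plasmid (3 arrays) and Alb-Cre with IL-13 (3 arrays). All animals received a plasmid for overexpression in mammalian cells by hydrodynamic delivery and were killed 1 week later. The green fluorescent protein EGFP is therefore the control for delivery, and no uninjected liver was analysed here. The series title names a floxed Il4ra allele and Alb-Cre, a transgene that expresses Cre recombinase in hepatocytes from the promoter of albumin. Stellate, endothelial and immune cells do not use that promoter. The strain, age and sex of the mice and the allele carried by the wild-type animals are not given in the sources used here, nor is it stated that each array came from a separate mouse. The p-values then measure only the spread between these samples.

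IL-13 is a cytokine of type 2 immunity. It binds a receptor made of the chains encoded by Il13ra1 and Il4ra, and Janus kinases at that receptor phosphorylate the transcription factor STAT6, which enters the nucleus and binds DNA. In macrophages this drives the alternative activation genes, in fibroblasts and stellate cells it is tied to collagen deposition, and in the liver it is known from parasite infections as a driver of fibrosis. Hepatocytes carry the receptor too, so an average over both genotypes holds responses of cells in which Cre was not expressed and whatever hepatocytes contribute in wild type.

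Of 25697 probes an array detected between 11554 and 13261, and the correlation r of replicates within a group ran from 0.980 to 0.993. The number of arrays limits the precision of every value. The 26 hepatocyte markers measured were all detected, and their summed normalised signal, on a linear scale, was between 205560 and 221042 on the EGFP arrays and between 172890 and 202551 on the IL-13 arrays. The probe for Il13 lay near the floor on every array, between 4.55 and 5.39 (log2) with EGFP and between 4.46 and 4.92 with IL-13. It did not register the delivered gene, with an averaged change of -0.19 ± 0.11 and an adjusted p of 0.181, so the labels were not checked by it. Il4ra was not analysed here. Xist, which coats the inactive X in female cells, was detected on all 8 EGFP arrays and on wild-type IL-13 arrays 1 and 2. Instead, Eif2s3y and Kdm5d of the Y chromosome were detected on wild-type IL-13 array 3 and on all 3 Alb-Cre IL-13 arrays. Sex pattern and plasmid are therefore partly confounded. Results that rest on the pattern are given below with it as a covariate and on the arrays with Xist alone. With IL-13 the pattern also differs between the genotypes, so a difference in response between them cannot be fully told apart from it.

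The averaged effect was broad. Of 9711 genes tested, 4201 (43.3%) passed an adjusted p of 0.05, 2145 of them higher (22.1%) and 2056 lower (21.2%) with IL-13, by limma with Benjamini-Hochberg adjustment. A gene is said to rise, fall or be called below when it passed this threshold. The share of rises among calls was 51.1%, against 61.7% from the authors' log2 table and 58.8% without quantile normalization. At least 2-fold changes were made by 438 of the rises and 264 of the falls. The median change over all genes was -0.01 on the log2 scale. The median standard error was 0.09 for the averaged change, 0.13 for the change in either genotype and 0.19 for the difference between them.

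Part of this response was shared. The wild-type comparison alone called 3952 genes (40.7%) and the Alb-Cre comparison 1840 (18.9%). They called 1330 genes (13.7%) in the same direction, 798 higher (8.22%) and 532 lower (5.48%), and all 1330 were among the averaged calls, of which they made up 31.7%. A further 2077 averaged calls (49.4%) were made in wild type only, 350 (8.33%) in Alb-Cre only and 433 (10.3%) in neither genotype on its own. A call in 1 genotype alone is not yet a difference in response. The test of the difference between the genotypes called 1277 genes (13.2%), and it called 608 (29.3%) of the 2077 wild-type-only genes and 82 (23.4%) of the 350 Alb-Cre-only genes. It also called 301 (22.6%) of the 1330 shared genes, so a response may be shared in direction and differ in size. The change was larger in wild type for 954 of the 1330 (71.7%). A further 55 genes (0.566%) were called in both genotypes in opposite directions, and 11 of them still passed the averaged test.

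The 6 IL-13 arrays and the 8 EGFP arrays did not overlap for 1373 genes (14.1%), 821 higher (8.45%) and 552 lower (5.68%). These comprised 1093 of the 1330 shared genes (82.2%). The median averaged change was 0.94 over the shared rises and -0.78 over the shared falls, and 251 and 75 of them changed at least 2-fold in each genotype. The arrays were run on 2 slides that each held all 4 groups, and on both slides the 1330 genes kept the sign of their averaged change. In a fit with a slide term the averaged effect called 4178 genes, and the slides taken alone gave 2855 (slide 1) and 2429 (slide 2). The 15 largest shared rises and the 15 largest shared falls were taken from the shared genes whose IL-13 and EGFP arrays did not overlap. Most are described below. All 30 were called on each slide, which says little, since the same arrays selected them. A called difference between the genotypes was seen for 6 of the 15 rises and 8 of the 15 falls. With the sex pattern as a covariate all 1330 kept their sign and 1113 (83.7%) their averaged call. The wild-type arrays with Xist alone called 1256 (94.4%) in the same direction, but they hold no Alb-Cre IL-13 array and cannot speak to sharing. The 1330 genes were selected on these same arrays, so such agreement, on the slides too, was largely given in advance.

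**Figure D1:**
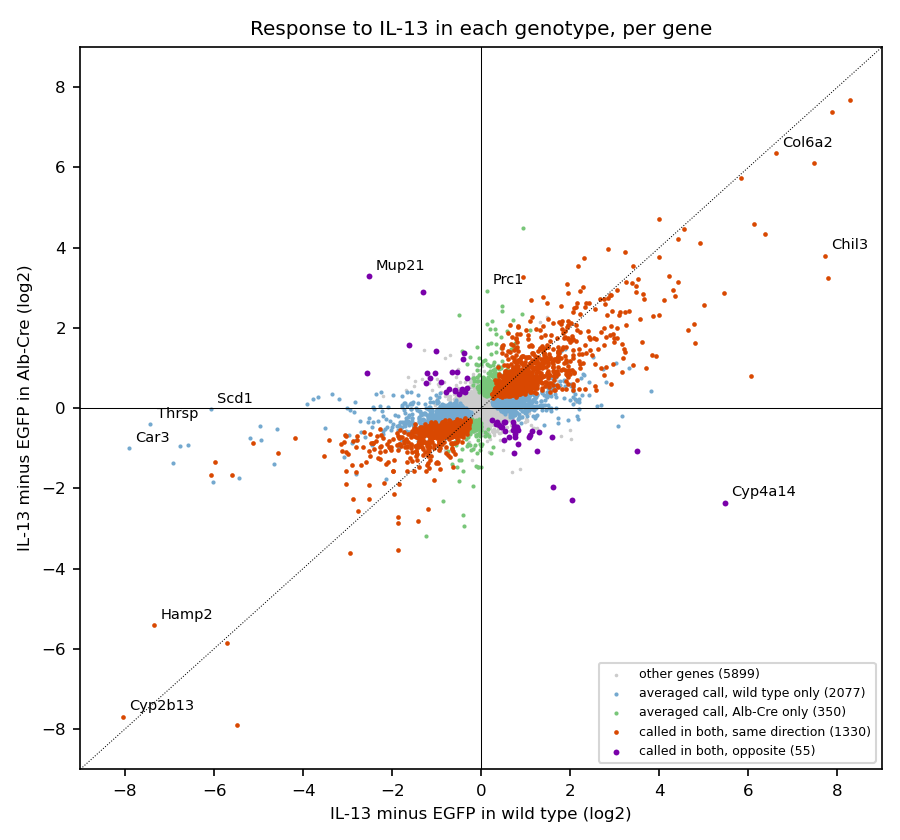
Each point is 1 of 9711 genes, with the log2 change from EGFP to IL-13 in wild type on the horizontal axis and in Alb-Cre on the vertical axis. The 1330 genes called in both in the same direction (orange) lie in the upper right and lower left, and the 55 opposite calls (purple) in the other quadrants. The 2077 wild-type-only averaged calls (blue) were not called in Alb-Cre, but some changed there too, such as Cyp7a1 at -6.92 in wild type and -1.37 in Alb-Cre.

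Retnla was the most firmly shared rise. It encodes resistin-like molecule alpha, a secreted protein of alternatively activated macrophages and a known target of STAT6. It was not detected on any EGFP array, where its log2 signal lay between 4.23 and 4.32, with a median of 4.28. On the 6 IL-13 arrays the lowest, median and highest values were 11.16, 11.91 and 12.39, so the groups were far apart. Its level was at least 165-fold higher with IL-13 (adjusted p = 4.36e-16). The fitted change was 7.87 in wild type and 7.38 in Alb-Cre, and the 95% interval of their difference ran from -0.999 to 0.01 (adjusted p = 0.198).

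The promoters of Retnla and of Chil3, another top rise, are shown because both are textbook IL-4 and IL-13 targets and the STAT pathway carries the signal. They run 5′ to 3′ on the gene's strand, from 250 bases before to 50 bases after the RefSeq start (GRCm38.p6), and capitals mark the motif found. Retnla lies at chr16:48842359-48842658 on the plus strand and holds the STAT6-type motif (TTC and GAA with 4 bases between them) at -145 from the start. Chil3 lies at chr3:106167515-106167814 on the minus strand and holds TTCNNNGAA, the shorter spacing that other STATs prefer, at -172. Positions are those of the motif's most 5′ base.
Retnla: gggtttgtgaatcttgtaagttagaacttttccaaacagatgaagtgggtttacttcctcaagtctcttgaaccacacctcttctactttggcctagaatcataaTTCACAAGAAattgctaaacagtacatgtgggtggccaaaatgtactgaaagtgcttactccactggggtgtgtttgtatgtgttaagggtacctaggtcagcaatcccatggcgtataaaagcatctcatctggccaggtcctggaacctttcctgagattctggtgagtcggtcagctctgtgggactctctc
Chil3: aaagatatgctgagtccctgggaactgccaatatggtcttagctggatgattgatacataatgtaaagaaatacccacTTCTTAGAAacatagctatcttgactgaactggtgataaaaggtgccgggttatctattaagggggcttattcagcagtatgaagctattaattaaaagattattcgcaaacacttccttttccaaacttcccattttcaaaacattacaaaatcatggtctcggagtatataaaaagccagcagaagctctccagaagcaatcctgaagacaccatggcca
Both motifs are palindromic in their fixed letters and were searched on both strands. Among 27025 RefSeq genes with a promoter, 8.01% held the STAT6-type motif and 9.55% held TTCNNNGAA in this window, and among the 7878 tested genes with a promoter the shares were 6.59% and 8.38%. The 602 shared rises with a promoter held them in 8.64% and 8.80% of cases, and the 439 shared falls in 5.69% and 7.97%. Of the 15 largest shared rises 8 had a promoter, 2 of them with the STAT6-type motif (Retnla and Rab15) and 2 with TTCNNNGAA (Chil3 and Rab15), and Car4, Col6a1, Col6a2, Fam180a and Rnase2a held neither. Of the 15 largest shared falls 14 had a promoter, and 0 and 2 held these motifs. A match is a description of these letters and says nothing of binding.

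Other genes of the type 2 response rose too. Of 23 measured members of a 30-gene list, 19 rose and 0 fell in the averaged effect, where 22.1% of all genes rose and 21.2% fell. In both genotypes 12 rose, against 8.22% of all genes. Their median change was 1.51 (1.49 with undetected genes at their bound), against -0.01 over all genes. The test of the difference called 10 of the 23 members, all 10 with the lower response in Alb-Cre, against 13.2% of all genes, and the list's medians were 2.01 in wild type and 0.77 in Alb-Cre.

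Rnase2a belongs to the eosinophil-associated ribonucleases. It was undetected with EGFP, with values from 4.18 to 4.27, and reached 9.83, 11.22 and 11.95 (lowest, median, highest) on the IL-13 arrays. That is at least 90.0-fold higher (adjusted p = 2.63e-14), and the response in Alb-Cre differed from that in wild type by -1.36 ± 0.31 (SE, log2, adjusted p = 0.00892). Chil3 encodes a chitinase-like protein of macrophages, also called Ym1. It measured between 4.10 and 4.40 with EGFP, undetected throughout, and between 7.20 and 12.10 with IL-13, with a median of 10.39. The 3 Alb-Cre IL-13 arrays, at 9.06, 7.73 and 7.20, all lay below the 3 wild-type ones, at 11.71, 11.91 and 12.10. Its averaged rise of at least 42.7-fold stands for unequal responses of 7.72 ± 0.29 and 3.80 ± 0.29 (SE, adjusted p of the difference = 1.62e-05). Probes of the Chil3 and Rnase2a families can bind transcripts of close relatives, so each value may include a neighbour's signal.

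The eotaxins Ccl11 and Ccl24, chemokines that draw in eosinophils, both rose. Ccl11 measured 4.50, 4.81 and 4.95 (lowest, median, highest) with EGFP and 7.51, 8.86 and 10.50 with IL-13, without overlap. Its averaged change was 4.16 ± 0.15 (adjusted p = 5.27e-12), and its rise was smaller in Alb-Cre (2.87 against 5.44, adjusted p of the difference = 3.83e-05). Ccl24 rose by 1.58 ± 0.18, with a difference between genotypes of -0.34 and a 95% interval from -1.10 to 0.42. Markers of eosinophils, basophils and mast cells stayed near the floor. Only 4 of 14 such genes with a probe passed the detection filter, Siglecf and Epx did not, and their summed signal was between 77 and 91 with EGFP and between 79 and 92 with IL-13. Prg2, an eosinophil granule protein, was detected on 0 of 8 EGFP and 3 of 6 IL-13 arrays, with values from 4.19 to 4.33 and from 4.31 to 4.55 (adjusted p = 0.0137). The eosinophil receptor for eotaxin, Ccr3, was likewise detected on 0 and 3, at 4.19 to 4.46 and 4.30 to 4.76 (adjusted p = 0.0684).

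Feedback genes of cytokine signalling were shared to different degrees. Il13ra2, the decoy receptor that binds IL-13 and lowers its action, was undetected on all 8 EGFP arrays (4.14 to 4.26) and measured 5.84, 6.32 and 6.54 on the IL-13 arrays. It was at least 3.34-fold higher, with fitted changes of 1.94 in wild type and 2.18 in Alb-Cre, and the interval of the difference ran from -0.17 to 0.64. The signalling chain Il13ra1 measured 7.54 to 8.42 with EGFP and 7.95 to 8.55 with IL-13, a change of 0.16 ± 0.15 that was not called (adjusted p = 0.412). Cish, a STAT-induced inhibitor of cytokine receptors, rose from a median of 7.74 to 11.31, by 3.41 in wild type and 3.54 in Alb-Cre. Socs2 and Socs3, inhibitors of the same family, rose on average by 2.08 and 1.49, but neither was called in Alb-Cre alone (1.13 and 0.95, adjusted p = 0.0526 and 0.0876).

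The macrophage lectins Mrc1 and Mgl2 rose in both genotypes and less in Alb-Cre. Mrc1, the mannose receptor, measured 8.62, 8.78 and 9.08 with EGFP and 9.22, 10.39 and 11.37 with IL-13 (lowest, median, highest). Its change was 2.55 in wild type and 0.55 in Alb-Cre (adjusted p of the difference = 2.29e-06). Mgl2, a galactose-type lectin, rose by 2.76 and 0.82 (adjusted p of the difference = 1.87e-06). Arg1, the urea cycle enzyme that also marks alternatively activated macrophages, was already at 12.54 with EGFP, and its averaged change of 0.32 ± 0.09 was not called in Alb-Cre alone (0.19), with no called difference between the genotypes. In whole liver more cells of a type and more RNA per cell cannot be told apart, here or in the groups that follow.

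Most extracellular matrix genes that rose did so in both genotypes. Of 14 collagen chains measured, 10 rose and 2 fell on average, where 22.1% of all genes rose and 21.2% fell. In both genotypes 9 rose, against 8.22% of all genes, and the medians were 1.76 in wild type and 2.28 in Alb-Cre. The list's difference test called 2 chains, about the share of all genes (13.2%), both with the larger change in Alb-Cre. Col6a2 and Col6a1 encode chains of collagen VI, which forms beaded filaments around cells. Col6a2 was at 4.89, 5.05 and 5.65 (lowest, median, highest) with EGFP and at 11.17, 11.58 and 11.99 with IL-13. All 6 IL-13 arrays were thus far above all 8 EGFP arrays, with an averaged change of 6.49 ± 0.11 (adjusted p = 1.55e-15) and a difference between genotypes of -0.26 (95% interval -0.75 to 0.23).

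Col6a1 changed by 5.79 ± 0.13, from a median of 7.16 to 13.03, and its 3 probes gave changes between 2.35 and 5.88. Col1a1, the main chain of fibrillar collagen I, measured 5.01 to 6.22 with EGFP and 9.47 to 10.71 with IL-13. It rose by 4.35 ± 0.19, and Col3a1, its partner in fibrillar collagen, by 3.55 ± 0.16 (2 probes, at 1.42 and 3.55). Neither differed by a called amount between the genotypes, with intervals from -0.08 to 1.54 and from -0.02 to 1.35. Col4a2, a basement membrane chain, rose by 2.39 without overlap.

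The enzymes that build the fibres rose as well, in 9 of 13 measured cases on average and 6 in both genotypes (22.1% and 8.22% of all genes). On average 2 fell, against 21.2% of all genes. Lox, which cross-links collagen, was undetected with EGFP (4.15 to 4.51) and measured 7.72, 8.12 and 8.57 with IL-13. It was at least 12.1-fold higher, with changes of 3.99 in wild type and 3.76 in Alb-Cre. Its relative Loxl1 rose by 2.40 ± 0.14, Pcolce, which promotes procollagen cleavage, by 1.86, and the collagen chaperone Serpinh1 by 1.90. Loxl1 and Serpinh1 rose more in Alb-Cre, by 0.91 and 1.56 on the log2 scale (adjusted p = 0.0418 and 0.000122).

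Of 24 matrix glycoproteins and proteoglycans measured, 19 rose, 1 fell and 15 rose in both genotypes (22.1%, 21.2% and 8.22% of all genes). The proteoglycan Lum measured 6.57 to 7.35 with EGFP and 9.60 to 11.56 with IL-13, a change of 3.57 ± 0.15 that was smaller in Alb-Cre (2.80 against 4.34). Sparc, a collagen-binding protein, rose by 2.65, the microfibril protein Mfap2 by 2.00 and the basement membrane protein Nid2 by 1.61. None of these 3 had a called difference, and the 3 Mfap2 probes gave changes between 0.66 and 2.00. Genes that cut matrix or block its cutting rose too, with 9 of 12 up and 0 down on average (22.1% and 21.2% of all genes). Mmp2, a gelatinase made by stromal cells, rose by 3.25 ± 0.14, and its inhibitor Timp2 by 2.73 ± 0.12. Timp1, the inhibitor used as a serum marker of fibrosis, rose by 1.91 in wild type and less, by 0.84, in Alb-Cre (adjusted p of the difference = 0.00326).

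Markers of the stellate cells and myofibroblasts that make matrix moved less uniformly. Of 16 measured, 9 rose (22.1% of all genes) and 3 fell, the latter about the share of all genes (21.2%). In both genotypes 7 rose and 2 fell, against 8.22% and 5.48%, and the averaged median was 0.40. Their summed signal was between 1929 and 2557 with EGFP and between 2120 and 3223 with IL-13. Acta2, the smooth muscle actin of myofibroblasts, measured 5.17, 5.74 and 6.79 with EGFP and 7.76, 8.14 and 9.62 with IL-13. Its change of 2.56 ± 0.28 came from the brightest of 4 probes, and the others gave changes down to 0.39. The intermediate filament Des rose by 1.18 and the globin Cygb by 2.03, both less in Alb-Cre. Reln, a secreted protein of stellate cells, fell in wild type (-2.94) and was at -0.05 in Alb-Cre (adjusted p of the difference = 3.31e-06).

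The pathway of TGF-beta, a cytokine tied to fibrosis, changed modestly. On average 9 of 19 measured genes rose and 2 fell, where 22.1% of all genes rose and 21.2% fell. In both genotypes 4 rose (8.22% of all genes), and the averaged median was 0.24. The sex covariate left 5 rises and 1 fall, against 14.2% and 10.2% of all genes. The ligand Tgfb1 measured 5.91 to 6.29 with EGFP and 6.32 to 6.48 with IL-13. The arrays did not overlap, but the change was small at 0.24 ± 0.07 (adjusted p = 0.0153). The receptor Tgfbr2 rose by 1.17 and the latent binding protein Ltbp3 by 1.04, each in both genotypes. The 2 kept Ltbp3 probes gave 0.13 and 1.04.

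**Figure D2:**
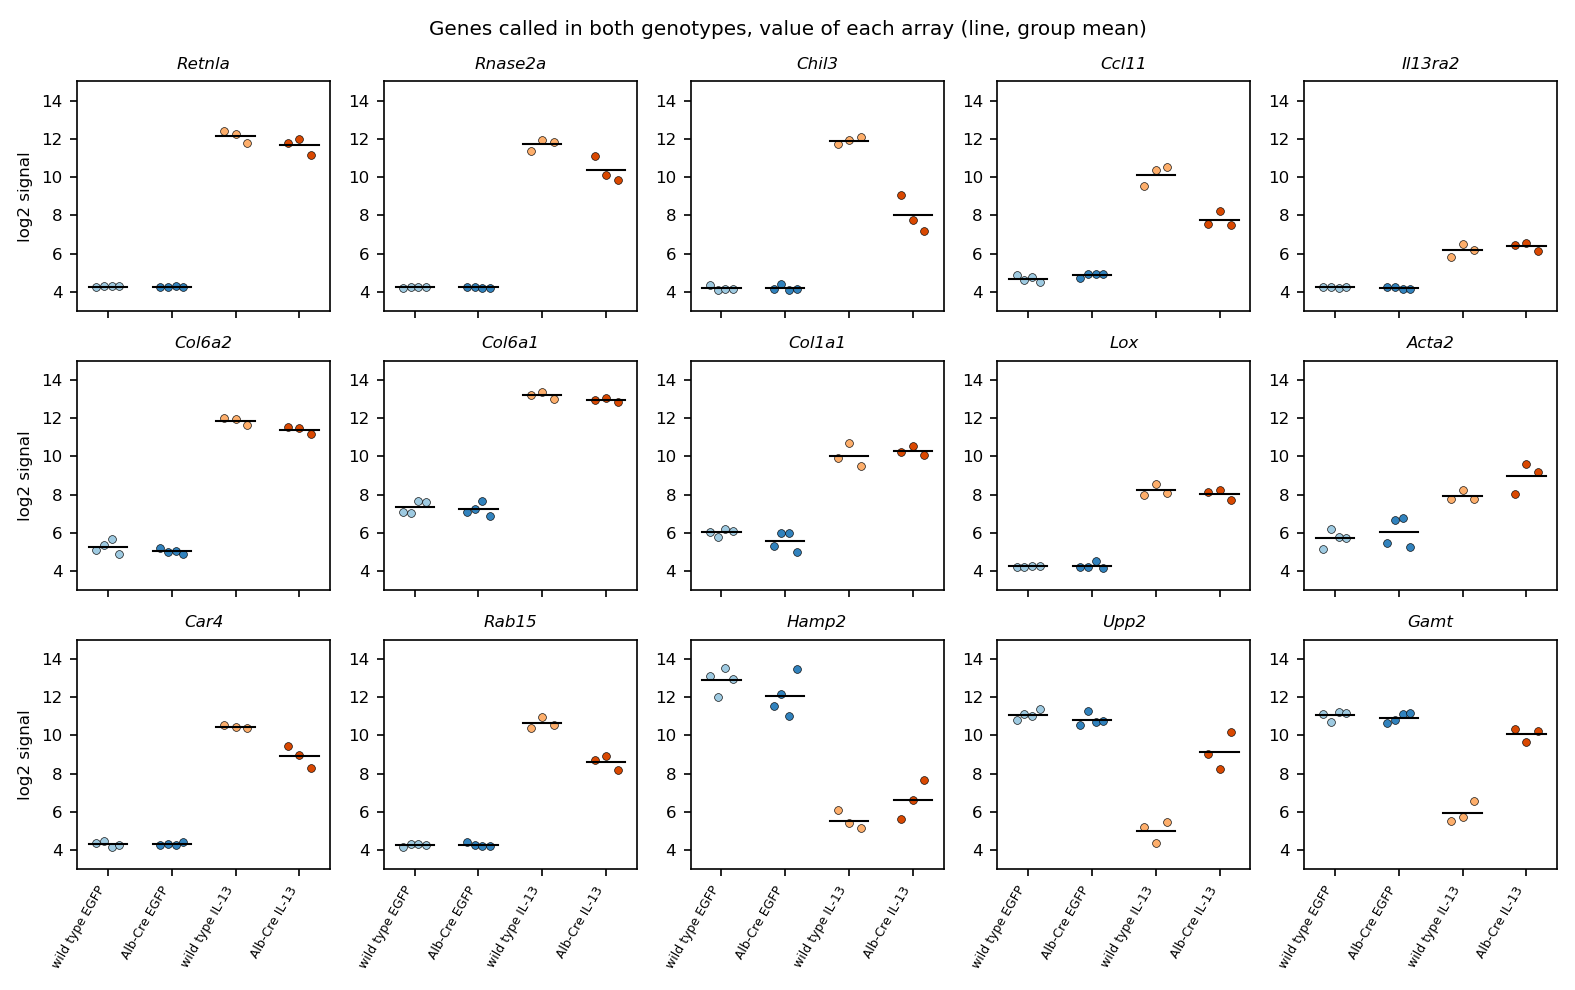
Each point is the log2 signal of 1 array for 15 genes called in both genotypes, with a line at the group mean, for wild type and Alb-Cre under EGFP and IL-13. The IL-13 arrays lie above the EGFP arrays for the first 12 genes and below them for Hamp2, Upp2 and Gamt. The genotypes separate under IL-13 for Chil3, Ccl11, Upp2 and Gamt, and Rnase2a, Car4 and Rab15 also had a called difference in response.

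Several of the largest shared rises are genes outside these families. Car4, a membrane-bound carbonic anhydrase, was undetected with EGFP (4.19 to 4.50) and measured 8.29, 9.94 and 10.53 with IL-13, at least 35.4-fold higher. Rab15, a small GTPase of endosomes, rose at least 34.2-fold, from values of at most 4.45 to values between 8.21 and 10.97. Both rose less in Alb-Cre, with differences of -1.54 and -2.04 (adjusted p = 0.00139 and 2.89e-05). Fam180a and the secreted matrix protein Ccdc80 rose by 4.51 ± 0.12 and 4.31 ± 0.15, with differences between genotypes of -0.08 and -0.20 that were not called. Scara5, a scavenger receptor for ferritin, rose by 4.51 ± 0.25. Ly6d, a surface antigen of the Ly6 family, spread widely under IL-13, at 11.78, 12.33 and 12.25 in wild type and 4.91, 9.65 and 8.16 in Alb-Cre. It was undetected with EGFP and at least 39.7-fold higher on average, and 1 Alb-Cre array lay near the EGFP values.

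Many markers of phagocytes rose in both genotypes. Of 14 neutrophil markers measured, 11 rose and 1 fell on average (22.1% and 21.2% of all genes). In both genotypes 9 rose (8.22% of all genes). The markers had an averaged median of 1.19 (1.08 with undetected genes at their bound). Their summed signal was between 474 and 3272 on the EGFP arrays and between 4642 and 22882 on the IL-13 arrays. Such a linear sum weighs bright members most, so it is not a measure of neutrophil number. Lcn2 had the largest averaged change of the list, 3.77, and which cells made it was not tested. S100a8, a calcium-binding protein abundant in neutrophils, measured 5.95, 6.72 and 8.07 with EGFP and 9.22, 10.06 and 11.04 with IL-13. It rose by 3.20 ± 0.34, and the granule protein gene Ngp rose by 1.38. Mpo, the peroxidase of the granules, was undetected with EGFP and at least 2.58-fold higher with IL-13. Its 2 kept probes gave changes of 0.34 and 1.63. Csf3r, a growth factor receptor of neutrophils that was picked after its values were seen, changed by -0.04 (adjusted p = 0.828).

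Among monocyte and macrophage markers 11 of 18 rose and 3 fell on average, and 10 rose in both (22.1%, 21.2% and 8.22% of all genes). Their summed signal was between 3335 and 4565 with EGFP and between 5463 and 13203 with IL-13. Lgals3, a galectin of activated macrophages, rose from a median of 6.50 to 9.26, by 2.70 ± 0.10. The 3 markers that fell, the lysozyme genes among them, changed by -1.02, -0.95 and -0.41 on average. Cd14, the endotoxin co-receptor, rose by 6.06 in wild type and by 0.80 in Alb-Cre, so its average of 3.43 describes neither (adjusted p of the difference = 5.53e-07). Of 12 Kupffer cell markers 7 rose on average, where 22.1% of all genes rose. A further 3 fell, about the share of all genes (21.2%). The complement genes C1qa, C1qb and C1qc rose by 1.39, 1.28 and 1.57, with differences between genotypes of 0.02, -0.17 and -0.32 that were not called. Clec4f, a lectin of resident Kupffer cells, fell in wild type (-2.22) and was at -0.07 in Alb-Cre (adjusted p of the difference = 0.000895).

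Antigen presentation genes formed the reverse case, with larger rises in Alb-Cre, where all IL-13 arrays carry the Y-linked signal. Of 12 measured MHC class II and dendritic cell genes, 8 rose and 0 fell on average (22.1% and 21.2% of all genes). With the sex covariate 6 rose and 0 fell (14.2% and 10.2%). The difference test called 7, against 13.2% of all genes, all 7 larger in Alb-Cre. Cd74, the invariant chain, rose by 1.10 in wild type and 2.18 in Alb-Cre (adjusted p of the difference = 0.00206), and H2-Ab1 by 0.60 and 1.86. The 4 H2-Ab1 probes gave averaged changes between 0.09 and 1.23. Few lymphocyte markers were measured. Of 22 T and NK cell markers with a probe 9 passed the filter, of which 0 rose and 2 fell on average, the latter about the share of all genes (21.2%). Endothelial markers went both ways, with 7 rises and 7 falls among 20, where 22.1% of all genes rose and 21.2% fell. Vwf and Pecam1 rose by 3.07 and 1.39 in the averaged effect, and Ehd3, a marker of fenestrated endothelium, changed by -2.16.

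**Figure D3:**
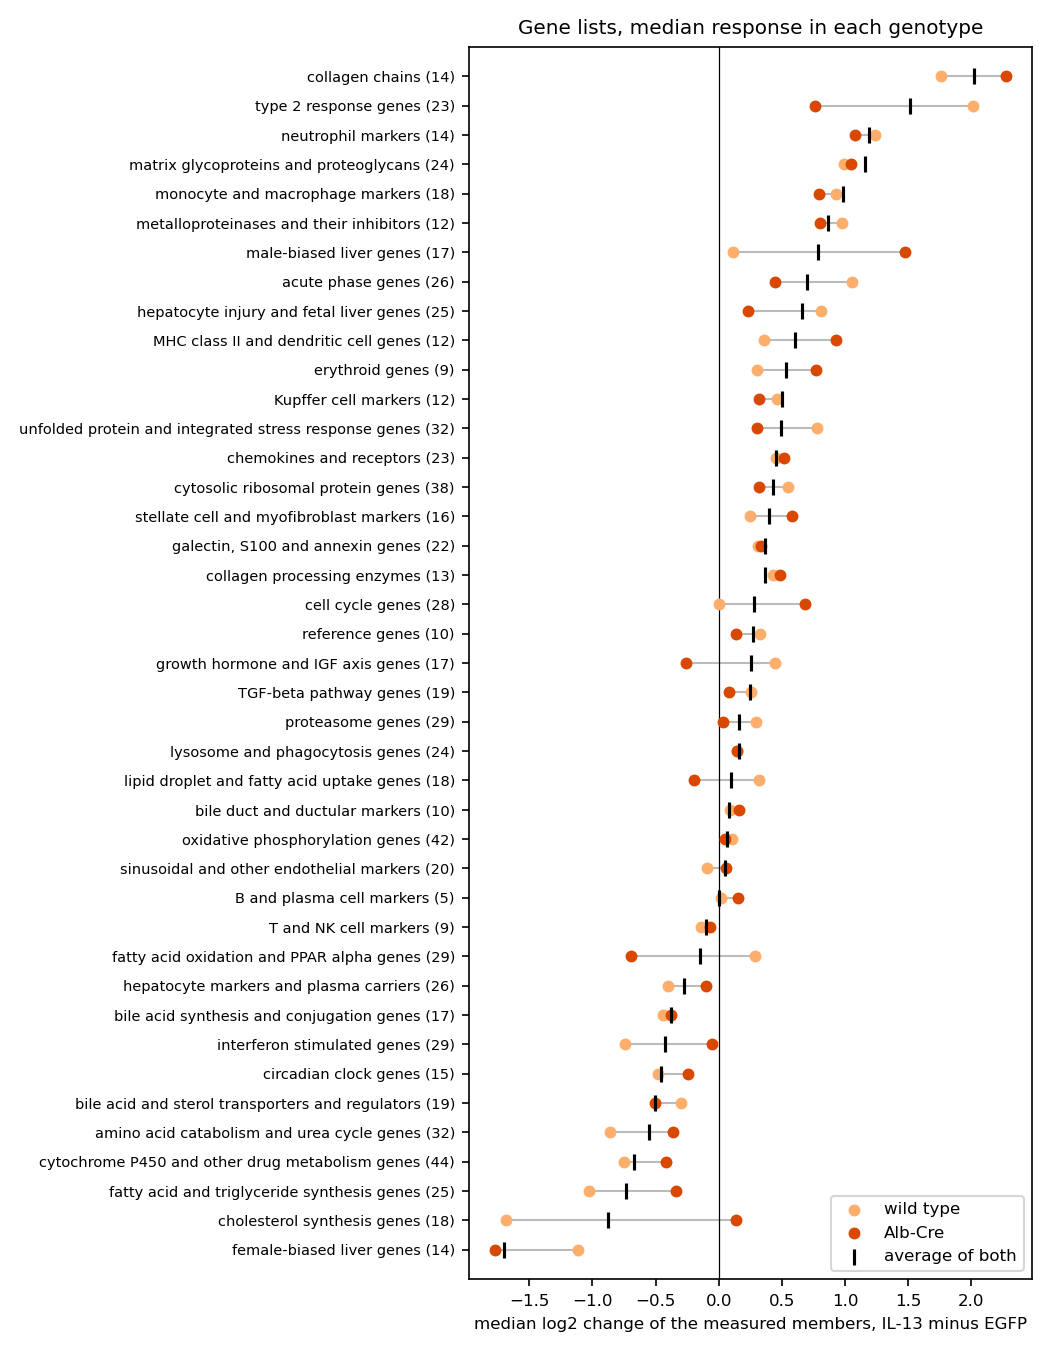
For each gene list with at least 5 measured members (number in parentheses), the points give the median log2 change from EGFP to IL-13 in wild type and in Alb-Cre and the bar gives the median of the averaged change. The collagen list has the highest averaged median, 2.02, with 1.76 in wild type and 2.28 in Alb-Cre. The medians of the 2 genotypes lie apart for the cholesterol, male-biased, type 2 response and fatty acid oxidation lists. Those of the type 2 response list are 2.01 in wild type and 0.77 in Alb-Cre.

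Many of the largest shared falls were genes of hepatocyte metabolism. Hamp2, a paralogue of the iron hormone hepcidin, measured 10.997, 12.56 and 13.51 with EGFP and 5.15, 5.86 and 7.67 with IL-13. The arrays did not overlap, and the averaged change was -6.38 ± 0.37 (adjusted p = 1.69e-09). Upp2, a uridine phosphorylase, changed by -3.87 ± 0.24 on average. Its values were 5.19, 4.37 and 5.45 on the wild-type IL-13 arrays and 9.03, 8.27 and 10.16 on the Alb-Cre ones, all below the 8 EGFP arrays at 10.55 to 11.39. The fall was present in both genotypes and larger in wild type (adjusted p of the difference = 2.76e-05).

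The same held for Gamt, the last enzyme of creatine synthesis, at -5.12 in wild type and -0.87 in Alb-Cre. It held for Cyp1a2, which oxidises caffeine and other compounds, at -5.98 and -1.35, for the conjugating enzymes Ugt3a1 (-4.57 and -1.13) and Sult2a8 (at least 40.7-fold lower in wild type and -1.66 in Alb-Cre), and for Igfals, the carrier of insulin-like growth factors (-3.15 and -0.90). Each of these 5 had a called difference between the genotypes. Of the other large shared falls, the P450s Cyp2c39 and Cyp2g1, the sulfotransferase Sult1c2, the membrane protein Lrtm1 and the lipoprotein receptor Vldlr had averaged changes between -2.38 and -2.71. Across the list of P450 and other drug metabolism genes, 31 of 44 measured members fell and 6 rose on average (21.2% and 22.1% of all genes). In both genotypes 16 fell (5.48% of all genes). Adding the sex covariate left 20 falls and 4 rises, against 10.2% and 14.2% of all genes. The median was -0.67 on average, -0.75 in wild type and -0.42 in Alb-Cre. Cyp2e1, among the most abundant P450s, measured 14.03 to 14.15 with EGFP and 13.55 to 14.00 with IL-13, and its change of -0.27 was called on average and in neither genotype alone.

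Amino acid catabolism and urea cycle genes fell in 23 of 32 cases and rose in 2 on average (21.2% and 22.1% of all genes). In both genotypes 6 fell (5.48% of all genes). Hpd, of tyrosine breakdown, changed by -1.45 ± 0.11, Prodh2, of hydroxyproline breakdown, by -1.22, and glutamine synthetase, Glul, by -0.98, each in both genotypes and without overlap. Transporters and regulators of bile acids and sterols fell in 10 of 19 cases and rose in 3 (21.2% and 22.1% of all genes). In both genotypes there were 5 falls and 1 rise (5.48% and 8.22%). A fit with the sex covariate gave 3 falls and 3 rises (10.2% and 14.2%), so falls no longer outnumbered rises. The bile salt export pump Abcb11 changed by -2.99 in wild type and -1.13 in Alb-Cre, and the sterol exporter Abcg8 by -1.97 and -1.57. Not every hepatocyte gene fell: the plasma protein Fetub rose by 1.07 ± 0.13, and acute phase genes rose in 18 of 26 cases and fell in 0 (22.1% and 21.2% of all genes). Under that covariate 4 rose and 2 fell, where 14.2% and 10.2% of all genes did, and the list's median went from 0.70 to 0.33. Apcs, serum amyloid P, rose by 1.503 and 1.07, while Lbp, which carries endotoxin to Cd14, rose by 2.01 in wild type and was at 0.54 in Alb-Cre.

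Stress genes rose on average in 22 of 32 measured cases and fell in 3, where 22.1% of all genes rose and 21.2% fell. In both genotypes 10 rose (8.22% of all genes). Under the sex covariate 11 rose and 3 fell, against 14.2% and 10.2%. Asns, asparagine synthetase, measured 4.19 to 4.60 with EGFP and 5.90 to 9.50 with IL-13, a change of 3.79 ± 0.25. Its 3 probes gave changes between 0.20 and 3.79. Nupr1, a stress-induced nuclear protein, rose by 2.31, and Psat1, of serine synthesis, by 2.35, and all 3 rose less in Alb-Cre. Ribosomal protein genes shifted by small amounts, with 30 of 38 measured up and 1 down on average (22.1% and 21.2% of all genes). Their median was 0.43. Rpl12 rose by 0.92 and Rps4x by 0.59. Of 42 oxidative phosphorylation genes measured, 4 rose and 5 fell, fewer than the shares of all genes. Their median of 0.06 became -0.03 from the authors' log2 table and -0.06 without quantile normalization. The sex covariate gave 7 rises and 0 falls there (14.2% and 10.2% of all genes). Of the usual reference genes, Gapdh changed by 0.23 and Actb by 0.80, the latter with 5 probes between -0.60 and 0.80.

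The liver genes that differ between male and female mice were among the most changed of all, and some of them moved with the sex pattern of the arrays. Growth hormone pulses set many such genes, among them the female-predominant Cyp2b9 and Cyp2b13 and the male-predominant Cyp4a12a and Hsd3b5. Cyp4a12a, a fatty acid hydroxylase, had the largest averaged rise of all shared genes, at 7.98 ± 0.38 (adjusted p = 1.42e-10). It measured 4.36, 4.94 and 6.93 (lowest, median, highest) with EGFP. On wild-type IL-13 arrays 1 and 2, which carry Xist, it was at 12.75 and 13.19, and on array 3, which carries the Y-linked signal, at 13.25. The 3 Alb-Cre IL-13 arrays were at 11.66, 14.01 and 13.56. The level was high on every IL-13 array, with or without Xist, and the change on the wild-type arrays with Xist alone was 8.18 (adjusted p = 3.04e-08).

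Cyp2b13 had the largest averaged fall of the shared genes, -7.87 ± 0.21. It was at 10.91 to 12.69 with EGFP and at 4.29 to 4.49 with IL-13, where it was detected on 2 of 6 arrays, and the wild-type arrays with Xist gave a change of -7.98. Cyp2b9 was lower on all IL-13 arrays but at different levels, 8.09 and 7.70 on the arrays with Xist and 4.76, 4.38, 4.33 and 4.33 on those without it. Its averaged change of -6.69 became -4.60 with the sex pattern as a covariate and -4.43 on the arrays with Xist. Cyp2b23 changed by -5.79, and probes of these near-identical Cyp2b genes can bind each other's transcripts.

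Hsd3b5, a steroid reductase, went the other way: it was at 4.75 and 5.33 on the IL-13 arrays with Xist, at 7.38 on wild-type array 3 and at 9.55, 10.90 and 10.76 in Alb-Cre. On 1 Alb-Cre EGFP array, with Xist, it also reached 8.55. Its averaged change of 2.71 ± 0.54 was called, and became 1.15 (adjusted p = 0.383) with the covariate and 0.16 on the arrays with Xist. Of 14 female-biased genes measured, 13 fell and 0 rose on average (21.2% and 22.1% of all genes), and 7 fell in both genotypes (5.48%). With the covariate 7 fell (10.2%). Of 17 male-biased genes, 11 rose and 3 fell on average, against 5 and 5 with the covariate, where the background was 14.2% higher and 10.2% lower. Their median was 0.11 in wild type and 1.47 in Alb-Cre. Sex pattern and IL-13 cannot be told apart in Alb-Cre, where all 4 EGFP arrays carry Xist and no IL-13 array does.

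**Figure D4:**
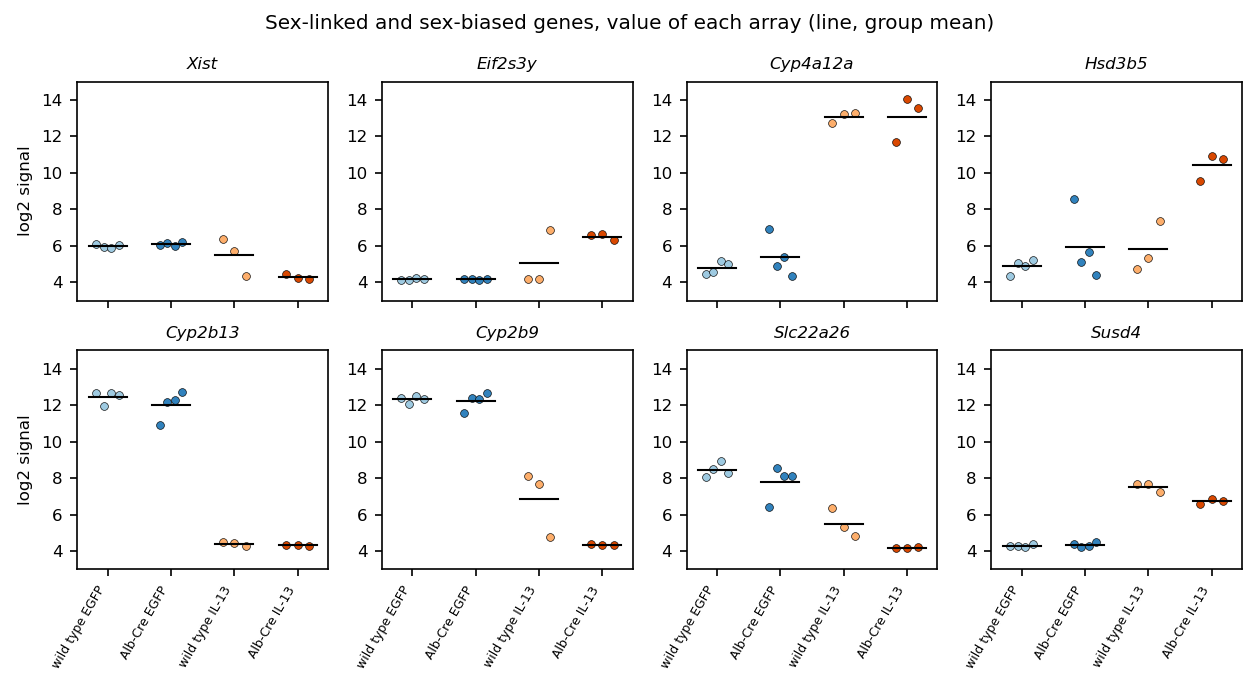
Each point is the log2 signal of 1 array, with a line at the group mean, for the sex-linked Xist and Eif2s3y and for 6 genes of the sex-biased lists. Cyp4a12a and Susd4 are high and Cyp2b13 is low on all 6 IL-13 arrays whichever of Xist and Eif2s3y the array shows, while Hsd3b5 is high on the 3 Alb-Cre IL-13 arrays and on 1 Alb-Cre EGFP array.

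For cholesterol and fatty acid synthesis the average mostly stood for wild type. Of 18 cholesterol synthesis genes measured, 10 fell on average (21.2% of all genes) and none rose. In wild type 16 fell (19.2%) but in Alb-Cre 0 (7.83%), and 16 had a called difference (13.2%). Their medians were -1.69 and 0.14, so the averaged median of -0.88 described neither genotype. Fatty acid and triglyceride synthesis genes fell in 19 of 25 cases on average, 18 in wild type, 5 in Alb-Cre and 4 in both. Of all genes 21.2%, 19.2%, 7.83% and 5.48% did. Thrsp, a lipogenic regulator, was at 4.78, 4.71 and 5.45 on wild-type IL-13 arrays, at 10.92, 11.40 and 12.38 on Alb-Cre ones and at 11.64 to 12.78 with EGFP. Its averaged fall of -3.91 ± 0.21 was made of -7.43 in wild type and -0.40 in Alb-Cre (adjusted p of the difference = 1.43e-07). Mlxipl, the carbohydrate-sensing regulator of lipogenesis, fell in both, at -2.27 and -0.52, and Scd1, the desaturase, changed by -6.07 and -0.02.

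Bile acid synthesis genes fell in 11 of 17 cases and rose in 4 on average, where 21.2% of all genes fell and 22.1% rose. They fell in 9 cases in wild type, 4 in Alb-Cre and 3 in both (19.2%, 7.83% and 5.48% of all genes). The medians were -0.44 in wild type and -0.37 in Alb-Cre, yet the genotypes differed gene by gene. The difference test called 9 of the 17, against 13.2% of all genes, 7 with the response in Alb-Cre above that in wild type and 2 below. Cyp7a1, which starts the classic route from cholesterol to bile acids, and Cyp8b1, which sets the bile acid mix, changed by -6.92 and -6.77 in wild type. In Alb-Cre they were at -1.37 (adjusted p = 0.0503) and -0.94 (adjusted p = 0.152). All 6 IL-13 arrays lay below all 8 EGFP arrays for each. Car3, an abundant hepatocyte carbonic anhydrase, and Cyp3a11, a drug-oxidising P450, were at -0.99 and -0.92 in Alb-Cre, where neither was called. In wild type Car3 was undetected with IL-13 and at least 209-fold lower, and Cyp3a11 changed by -6.59. Interferon stimulated genes fell in 19 of 29 cases and rose in 2 on average (21.2% and 22.1% of all genes). Wild type had 19 falls (19.2% of all genes) and Alb-Cre 5 (7.83%). The covariate for sex left 9 falls and 1 rise, against 10.2% and 14.2% of all genes. Gbp3, an interferon-induced GTPase, fell in both, at -3.04 and -1.57. Among rises, Cidec, a lipid droplet protein, and Apoa4, a lipoprotein component, rose by 3.81 and 3.16 in wild type and were at 0.42 and -0.19 in Alb-Cre.

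In cell cycle genes the average mostly stood for Alb-Cre. On average 15 of 28 rose and 3 fell (22.1% and 21.2% of all genes). In wild type 2 rose (21.5% of all genes), in Alb-Cre 17 (11.1%) and in both 2 (8.22%). Prc1, of the mitotic spindle, was at 8.24, 7.68 and 7.66 on Alb-Cre IL-13 arrays and at 4.75 to 6.11 with EGFP. It changed by 0.12 in wild type and 2.93 in Alb-Cre, and Top2a, the DNA topoisomerase of dividing cells, by 0.23 and 1.62. Adjusted for the sex pattern, 6 of the list rose and 2 fell on average, against 14.2% and 10.2% of all genes. The Alb-Cre rises cannot be told apart from the sex pattern. Tk1, thymidine kinase, fell in both, at -3.54 and -1.18.

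In fatty acid oxidation the average cancelled. Of 29 genes measured, 14 rose in wild type, where 21.5% of all genes rose, and 17 fell in Alb-Cre, where 7.83% fell. In opposite directions 8 were called in both, against 0.566% of all genes. The averaged median of -0.15 lay between 0.29 in wild type and -0.70 in Alb-Cre. With the sex pattern as a covariate the averaged median was 0.02. Cyp4a14, a fatty acid hydroxylase and a standard readout of PPAR alpha, rose by 5.47 in wild type and changed by -2.36 in Alb-Cre. Its average of 1.56 ± 0.49 was nevertheless called (adjusted p = 0.0164). Fgf21, the fasting hormone, behaved alike at 3.50, -1.07 and 1.22. Acot1, a thioesterase, and Cyp4a31 moved by 1.61 and 2.04 in wild type and by -1.98 and -2.29 in Alb-Cre, and their averages of -0.19 and -0.12 were not called. Mup21, a major urinary protein, and Selenbp2, a selenium-binding protein, went the opposite way, at -2.52 and -1.31 in wild type and 3.29 and 2.88 in Alb-Cre. Both are male-biased in mouse liver. Their Alb-Cre change, and that of Cyp4a14, Fgf21, Acot1 and Cyp4a31, cannot be told apart from the sex pattern. With the pattern as a covariate the average of Mup21 went from 0.38 to -0.44 and that of Selenbp2 from 0.79 to 0.07. Probes of the Cyp4a and Mup families can bind transcripts of close relatives. Ppara itself, the receptor, fell in both genotypes with an average of -1.19 ± 0.12, and so did the thioesterase Acot4 with -1.33.

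**Figure D5:**
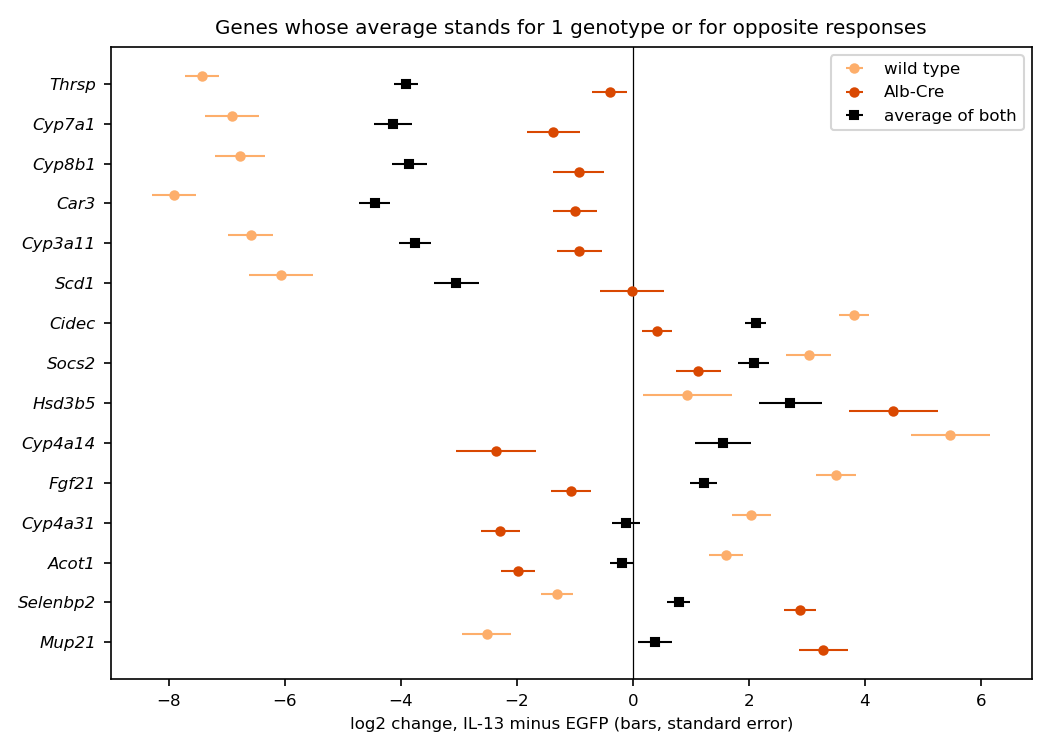
For 15 genes the points give the log2 change from EGFP to IL-13 in wild type, in Alb-Cre and as the average of both, with bars of 1 standard error. For the upper 9 genes 1 genotype is near 0 or not called and the average lies midway, and for the lower 6 the genotypes lie on opposite sides of 0.

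The 433 genes called only in the average had small changes, 166 higher and 267 lower, and 3 reached 2-fold. That the sign was the same in wild type and Alb-Cre for all 433 follows from how they were selected. Their median size was 0.28 on the log2 scale, against 0.88 for the 1330 genes called in both. Abcc3, a basolateral exporter of bile acid conjugates, changed by -0.56 in wild type and -0.64 in Alb-Cre (adjusted p = 0.0524 and 0.0523), and the average of -0.60 ± 0.15 was called at an adjusted p of 0.00507. With the sex pattern as a covariate it was 0.01. The mitochondrial carrier Slc25a47 and the phosphatase Pptc7 changed by -0.51 and -0.47, with differences between genotypes of -0.06 and -0.07. Il12a, a cytokine subunit, rose by 0.33, from detection on 1 of 8 EGFP arrays to 5 of 6 IL-13 arrays.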

How the data were processed

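Per the submitters' processing notes, the arrays were read with GenomeStudio 2011.1. The authors' deposited table gives each probe's non-normalized intensity and a detection p-value, and their log2 table holds the same intensities after a linear scaling of each array. The intensities were background-corrected with limma 3.58.1 in R 4.3.3 (normexp from the detection p-values, offset 16), quantile normalized and log2 transformed. Probes with a detection p below 0.05 on at least 3 arrays were kept, 14109 of 25697, and the brightest kept probe stood for each of 9711 genes. For 2570 genes more than 1 probe was kept, and the others could give smaller changes. A further 835 kept probes carry no symbol. A model of 4 group means with 10 residual degrees of freedom gave the averaged effect, the effect in each genotype and their difference (lmFit, eBayes, two-sided, Benjamini-Hochberg over all genes, threshold 0.05). Folds of genes undetected on a whole side are lower bounds, set against each array's lowest detected signal. List sums are of normalised signal units on a linear scale. The genes named are first the 15 largest shared rises and falls among genes without overlap of the IL-13 and EGFP arrays. They also include up to 4 members of each list with the smallest p, the largest responses of 1 genotype and the opposite responses. The clearest calls in the average alone and a fixed set complete them. The effect, the lists and the rule were chosen with earlier results of these data known. Replicate numbers did not pair the samples: 3 of 19 same-numbered pairs of deviations correlated above 0.1. Symbols came from the platform annotation and promoters from RefSeq. The code was tested on simulated data. Alternatives covered scaling, filters, slide, sex pattern, weights and single arrays.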

Additional observations from a re-analysis of the deposited data

Results flagged for a closer look

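The response differed between the genotypes for 63 of the genes named above, by limma's test of the difference with adjustment over all 9711 genes. Each value in parentheses is the response in Alb-Cre minus that in wild type on the log2 scale. The sex pattern of the IL-13 arrays also differs between the genotypes, so these differences cannot be fully told apart from it. Rises in both genotypes that were smaller in Alb-Cre were seen for Asns (-2.45), Car4 (-1.54), Ccl11 (-2.57), Cd14 (-5.27), Chil3 (-3.92), Cygb (-2.25), Des (-0.60), Lgals3 (-0.78), Lum (-1.54), Ly6d (-4.54), Mgl2 (-1.94), Mrc1 (-2.01), Nupr1 (-1.83), Psat1 (-2.70), Rab15 (-2.04), Rnase2a (-1.36), Rpl12 (-0.68), Rps4x (-0.40), Sox9 (-0.81), Srxn1 (-0.70), Susd4 (-0.83), Timp1 (-1.07) and Vwf (-1.54). Rises that were larger in Alb-Cre were seen for Cd74 (1.08), H2-Ab1 (1.26), Loxl1 (0.91) and Serpinh1 (1.56). Falls in both genotypes that were smaller in Alb-Cre were seen for Abcb11 (1.86), Cyp1a2 (4.63), Ehd3 (1.46), Gamt (4.24), Gbp3 (1.48), Hpd (0.81), Igfals (2.25), Mlxipl (1.75), Sult1c2 (1.16), Sult2a8 (3.93), Tk1 (2.35), Ugt3a1 (3.44) and Upp2 (4.41), and falls that were larger in Alb-Cre for Cyp2b9 (-2.42) and Cyp2c39 (-1.66).

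Falls called in wild type alone were those of Car3 (6.91), Clec4f (2.15), Cyp3a11 (5.67), Cyp7a1 (5.55), Cyp8b1 (5.83), Reln (2.89), Scd1 (6.05) and Thrsp (7.03), and rises called in wild type alone were those of Apoa4 (-3.35), Cidec (-3.39), Lbp (-1.47) and Socs2 (-1.90). Rises called in Alb-Cre alone were those of Hsd3b5 (3.55), Prc1 (2.81) and Top2a (1.39). Opposite calls were positive in wild type for Acot1 (-3.59), Cyp4a14 (-7.83), Cyp4a31 (-4.33) and Fgf21 (-4.57) and positive in Alb-Cre for Mup21 (5.81) and Selenbp2 (4.19).

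A single array stood apart from the other 3 of its group in 13 of 268 combinations of a named gene and a group of 4, and chance gives about 1 in 20. High or low against their group were Ccl11 at 4.73 on Alb-Cre EGFP array 1, Chil3 at 4.40 on Alb-Cre EGFP array 2, Chil3 at 4.36 on wild-type EGFP array 1, Cygb at 6.44 on wild-type EGFP array 3, Cyp2b13 at 11.92 on wild-type EGFP array 2, Cyp2e1 at 14.12 on wild-type EGFP array 1, Hpd at 12.14 on wild-type EGFP array 2, and likewise Krt23 at 8.72 on Alb-Cre EGFP array 4, Mfap2 at 4.48 on Alb-Cre EGFP array 2, Mlxipl at 10.55 on Alb-Cre EGFP array 1, S100a11 at 8.06 on wild-type EGFP array 3, Socs2 at 9.48 on Alb-Cre EGFP array 1 and Vwf at 5.57 on wild-type EGFP array 2. The IL-13 groups of 3 were not examined in this way.

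Of the 835 kept probes without a gene symbol, which entered no comparison, 342 were called in the averaged effect. That is about the share of the genes tested (43.3%). Of these probes 165 were higher and 177 lower, and 62 changed at least 2-fold.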

How the results depend on the processing

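The averaged effect called 4201 genes, and between 3424 and 4333 under the alternatives for scaling, filter, probe choice, slide as a block, genotype weights and array weights. Genes called in both genotypes numbered between 992 and 1386 under those that keep the genotypes, and averaged calls with a called difference between 718 and 1265, against 1330 and 1002. Slide 1 alone gave 2855, 648 and 187 of these counts and slide 2 alone 2429, 453 and 482, each from fewer arrays. The sex pattern as a covariate gave 2370, 653 and 457, and the cause was not tested. The replicate number as a block, which did not pair the samples, gave 3888, 1184 and 940. Leaving out each array in turn gave 3840 to 4132, 976 to 1382 and 677 to 1046. No called named gene lost its call when a single array was left out.

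The wild-type arrays with Xist alone turned the sign of Acot1 to 1.66, Ccr3 to -0.0156, Cyp4a31 to 2.13, Mup21 to -2.93, Prc1 to -0.0234, Selenbp2 to -1.67 and Xist to 0.0620, since no Alb-Cre IL-13 array enters there. The covariate gave Abcc3 0.0081, Cyp4a31 0.0474, Eif2s3y -0.18 and Mup21 -0.44. Slide 1 alone gave Mup21 -0.25, and slide 2 alone gave Acot1 0.15 and Cyp4a31 0.0569. Cyp4a31 was 0.050 in the authors' log2 table, and -0.30 to 0.0469 without each array in turn, above 0 without wild-type EGFP array 1 or Alb-Cre IL-13 array 1. The endothelial list's median of 0.05 became -0.03 on slide 1, -0.12 with the covariate and -0.16 on the arrays with Xist. Genes undetected on a side have only a bound there.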

Other observations

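Gene groups outside the comparisons above are given here beside shares over all genes of 22.1% higher and 21.2% lower. Of 25 hepatocyte injury and fetal liver genes measured, 15 rose and 3 fell in the averaged effect, and 6 rose in both genotypes (8.22% of all genes). Under the sex covariate 10 rose and 2 fell, against 14.2% and 10.2% of all genes. Gpc3, an oncofetal glypican, rose by 1.35 in wild type and 1.78 in Alb-Cre, and Srxn1, a target of the oxidative stress factor Nrf2, by 1.09 and 0.39. Among bile duct and ductular markers 3 of 10 rose and 1 fell, which is near those shares. The keratins Krt8 and Krt18 rose by 0.87 and 0.99, whereas Krt23 changed by -2.29. Sox9, a ductular transcription factor, rose by 1.45 in wild type and less, by 0.65, in Alb-Cre. Among galectin, S100 and annexin genes 12 of 22 rose and 3 fell, with S100a11 at 2.38 and the annexin Anxa2 at 1.56.

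Clock genes fell in 8 of 15 cases and rose in 1, with a median of -0.46. Under the sex covariate 3 fell and 1 rose, where 10.2% and 14.2% of all genes did. Per3 and Ciart, repressors of the clock, had averaged changes of -1.29 and -1.72 and fell in both genotypes. Clock rose by 0.73, and its 2 kept probes gave 0.18 and 0.73. The labels do not give the hour at which each liver was taken. Of 9 erythroid genes measured, 3 rose and 0 fell on average (22.1% and 21.2% of all genes). The IL-13 and EGFP arrays overlapped for all 9. Their summed signal was between 8003 and 13623 with EGFP and between 5851 and 21599 with IL-13. The erythroid band 3 anion exchanger Slc4a1 rose by 3.03 and the transferrin receptor Tfrc by 1.199. The globin genes Hba-a1 and Hbb-bt changed by 0.54 and 0.57. Lpl, a lipase, rose by 2.05 and 2.40, with a 95% interval of the difference from -0.57 to 1.26.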
